A study of Homo sapiens with 2 samples.

Results

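Liver transcription factors outside the nuclear receptor family were examined in Huh7 cells, an established line of hepatocellular carcinoma cells, by mRNA sequencing. The group held 8 genes, FOXA1, FOXA2, FOXA3, CEBPA, CEBPB, ONECUT1, ONECUT2 and PROX1. They were read out of 19927 gene rows by their symbols, and all 8 passed the filter on low counts (at least 1 CPM, reads scaled to the library total, in at least 1 library) that left 12524 genes in all. The cells carried either a short hairpin RNA against PPIL1, a cyclophilin of the spliceosome (called shPPIL1), or a control hairpin (called shControl, with the genotype label WT), and each group had 1 library. A single hairpin was used, so an effect of PPIL1 loss and an effect of that hairpin sequence cannot be told apart.

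These factors set the identity of hepatocytes. The FOXA proteins are forkhead factors that open chromatin in the foregut endoderm and at liver enhancers. CEBPA and CEBPB are leucine zipper proteins that bind as dimers. CEBPA drives metabolic genes and restrains growth, and CEBPB serves the acute-phase response and regeneration. ONECUT1 and ONECUT2 are cut homeobox proteins of the developing liver and bile ducts, and PROX1 is a homeobox protein needed, in mice, for hepatoblast migration and for lymphatic vessels.

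The genes differ in exon number and in the letters before their starts. In the longest coding transcript of GENCODE release 29 (GRCh38), CEBPA and CEBPB had 1 exon, the 3 FOXA genes and both ONECUT genes had 2 exons, and PROX1 had 5 exons. Of kept genes with such a transcript, 1.98% had 1 exon and 6.64% had 2 or fewer. Promoter windows from RefSeq (GRCh38.p14) were on hand for 6 of the 8 genes. Within 250 bases before the RefSeq start, CEBPA, CEBPB and FOXA3 held the letters TATAAA, which 10.7% of 35116 promoter windows held on either strand. In these 3 genes they stood close to the RefSeq start (from position -30 in CEBPA and FOXA3 and from position -29 in CEBPB, counted back from the base before the start as -1). Over all windows, 2.21% held TATAAA on the gene's strand between positions -35 and -15. The last 30 bases before the RefSeq start are shown for these 3 genes, because the motif stands at nearly the same place in each, and for FOXA1, the gene with the highest ratio here, whose window lacks it. Capitals mark TATAAA.
CEBPA: TATAAAagctgggccggcgcgggccgggcc
CEBPB: tTATAAAtaaccgggctcaggagaaacttt
FOXA3: TATAAAgcgtggccgcctcccgcggcgctc
FOXA1: tccacatcagctcaactgcacttgcctcgc
The stretches are chr19:33302535-33302564 on the minus strand for CEBPA, chr20:50190800-50190829 on the plus strand for CEBPB, chr19:45864296-45864325 on the plus strand for FOXA3 and chr14:37595250-37595279 on the minus strand for FOXA1. GENCODE release 29 puts the outermost starts of these 4 genes upstream of the RefSeq starts used here, so that all 30 bases lie inside its exons in each, and in CEBPA, CEBPB and FOXA3 TATAAA precedes the RefSeq start but not the GENCODE one. CEBPB also held TGACGCA, a variant of the cyclic AMP response element, from position -57; 2.09% of windows held it on either strand. RefSeq gives CEBPB a further start upstream, whose window held none of the motifs searched. The other motifs were CCAAT (in 32.0% of windows), TGACGTCA (1.65%), the forkhead letters TGTTTAC (2.98%), the C/EBP letters TTGCNNAA (9.05%) and the cut homeobox letters ATTGAT (5.58%), on both strands. Of these, CCAAT alone was found, in ONECUT1 and in CEBPB.

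The shPPIL1 library held 41165401 counted reads and the shControl library 41015345. PPIL1, the targeted gene, had 104 reads in shPPIL1 and 1505 in shControl, or 6.79% of the control level (95% counting interval 5.52 to 8.29%). All 8 hepatocyte markers were kept, with ALB, the albumin gene, at 3270 FPKM in shPPIL1 and 3203 FPKM in shControl. Of these markers, 6 had a ratio (shPPIL1 over shControl) with a counting interval above 1 and 1 below 1, and their median log2 ratio was 0.07. Over all kept genes, 24.9% had such intervals above 1 and 26.2% below 1. Some listed markers of other cells were at or near 0. PTPRC of leukocytes had 10 reads in shPPIL1 and 4 in shControl. KDR of endothelium, COL1A2 of stellate cells and KRT7 of bile ducts had 0 reads in both (a count of 0 allows up to 3). Other listed markers of such cells were present. Of 6 bile duct markers 5 were kept, with a summed level of 515 FPKM in shPPIL1 and 516 FPKM in shControl; 1 had a ratio with an interval above 1 (EPCAM, 328 FPKM in shPPIL1, 308 FPKM in shControl) and 3 below 1 (KRT19, SOX9 and SPP1, at 0.908, 0.830 and 0.857), and the list's median log2 ratio was -0.14. Of 6 leukocyte markers 2 were kept (sum 199 FPKM in shPPIL1, 243 FPKM in shControl), both with intervals below 1 and led by LYZ of myeloid cells (181 FPKM in shPPIL1, 223 FPKM in shControl). Of 6 stellate and fibroblast markers 2 were kept (sum 16.08 FPKM in shPPIL1, 15.96 FPKM in shControl), both with intervals that included 1. The higher of these was LUM, with 13.7 FPKM in shPPIL1 and 13.8 FPKM in shControl. Of 6 endothelial markers 1 was kept, PECAM1, with 1.27 FPKM in shPPIL1 and 1.48 FPKM in shControl and an interval below 1. The part of these markers in the results was not tested. No replicate check was possible and no test between conditions could be made. In a bulk library, fewer cells with a transcript and less of it per cell cannot be told apart. Intervals cover counting error only, since each group had 1 library. PCR copies are not independent molecules, so even that error may be larger than the intervals show.

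All 8 genes were expressed at well-measured levels. FPKM, reads scaled to transcript length and library total, allow levels to be compared between genes. CEBPA stood far above the others, at 198 FPKM in shPPIL1 and 178 FPKM in shControl, above 97.3% of kept genes in shPPIL1 and 97.0% in shControl. PROX1 followed with 44.1 FPKM in shPPIL1 and 46.4 FPKM in shControl. CEBPB had 31.9 FPKM in shPPIL1 and 35.4 FPKM in shControl, and FOXA1 31.9 FPKM in shPPIL1 and 26.8 FPKM in shControl. ONECUT2 came next with 24.8 FPKM in shPPIL1 and 24.5 FPKM in shControl, followed by FOXA2 and ONECUT1, and FOXA3 was the lowest. FOXA3 had 13.5 FPKM in shPPIL1 and 12.2 FPKM in shControl, still above the median of kept genes (9.42 FPKM in shPPIL1 and 9.29 FPKM in shControl). The order of the 8 genes was the same in both libraries. It depends on the transcript lengths behind the FPKM values, which counting intervals do not cover. Counting intervals of neighbours in that order were apart except for CEBPB (30.7 to 33.2 FPKM) and FOXA1 (31.0 to 32.8 FPKM) in shPPIL1, which overlapped.

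**Figure D1:**
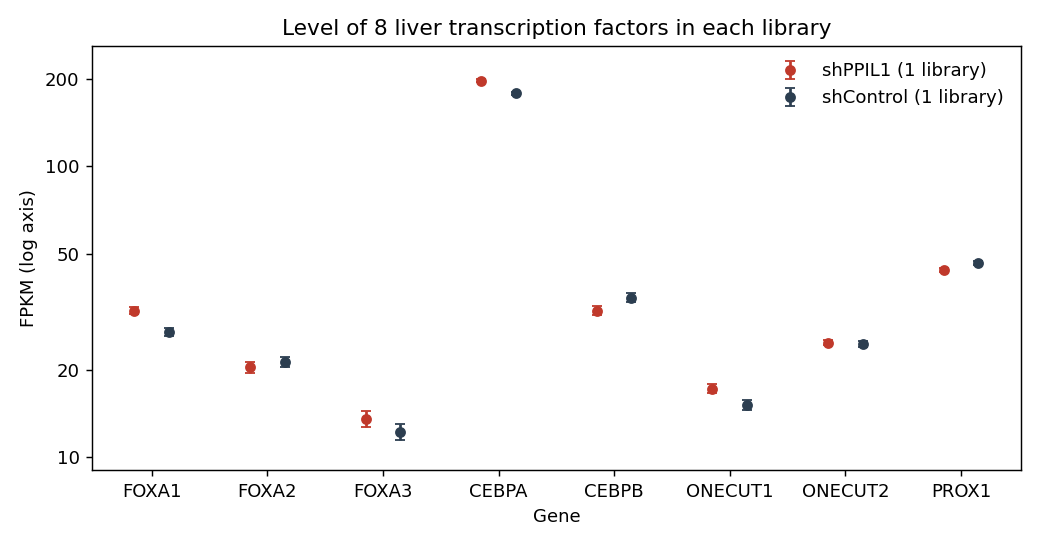
FPKM of each gene (log axis) in the shPPIL1 library (red, left) and the shControl library (dark, right), 1 library each, with bars for the 95% counting interval. CEBPA lies near 198 and 178 FPKM and the other genes between 12.2 and 46.4 FPKM.

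Differences between the libraries were small for every gene in the group. None of the 8 genes differed by 2-fold: 0 were higher and 0 lower by that factor, which 0.527% and 0.495% of all kept genes reached in these directions. At 1.2-fold the counts were again 0 higher and 0 lower, against 10.2% and 11.0% of kept genes. Those shares include genes with few reads, whose ratios spread more widely. For all kept genes, 95% of log2 ratios fell between -0.56 and 0.54. In the decile of mean CPM holding CEBPA, ONECUT2 and PROX1 these bounds were -0.33 and 0.23, and in that of FOXA3 -0.44 and 0.37. Whether 0 of 8 is unusual for genes of such levels was not tested. The counting interval of the ratio lay above 1 for 4 genes (FOXA1, FOXA3, CEBPA and ONECUT1) and below 1 for 2 (CEBPB and PROX1), where 24.9% and 26.2% of kept genes had such intervals. Intervals are narrower with more reads, so these shares depend on depth, and shares among genes of like depth were not computed. For FOXA2 and ONECUT2 it included 1. The median log2 ratio of the 8 genes was 0.06 (range -0.17 to 0.23), beside 0.00 for all kept genes, whose middle 50% ran from -0.13 to 0.12. Ratios are shPPIL1 over shControl after scaling by TMM, which sets the bulk of genes to equal expression. Together the 8 genes took 0.141% of reads in shPPIL1 (exact 95% interval 0.140 to 0.142%) and 0.136% in shControl (0.134 to 0.137%).

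**Figure D2:**
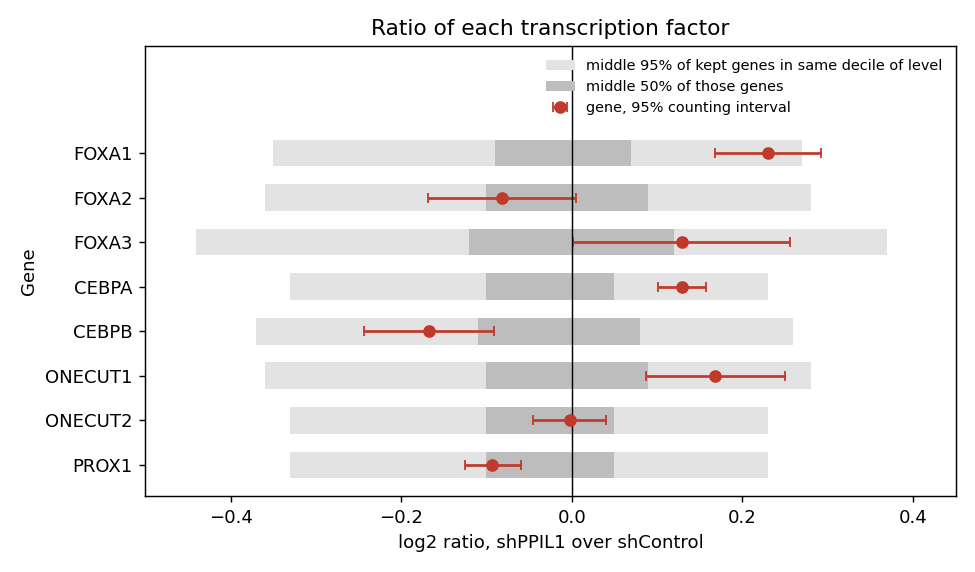
Log2 ratio of each gene, shPPIL1 over shControl (point, with its 95% counting interval), over the middle 95% (light) and middle 50% (grey) of kept genes in the same decile of mean CPM. FOXA1 at 0.23 lies closest to the edge of its light band, which ends at 0.27.

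FOXA1 had the highest ratio of the group. FOXA1, a forkhead factor of liver and other endoderm and of hormone-dependent epithelia (chromosome 14, 37589984 to 37596059, minus strand), had 4609 reads in shPPIL1 and 3864 in shControl. The ratio was 1.17 (1.12 to 1.22), so the shPPIL1 library was the higher, and counting intervals of the levels did not overlap. It stood at percentile 87.3 of the log2 ratios of all kept genes and at percentile 96.2 of the 1252 genes in its decile of mean CPM. TTC6, whose exons overlap FOXA1 on the opposite strand, had 443 reads in shPPIL1 and 429 in shControl, and its part in the FOXA1 count was not tested.

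FOXA2 did not share that difference. This gene, in mouse embryos the first FOXA gene of the endoderm (chromosome 20, 22581005 to 22585455, minus strand), had 2107 reads in shPPIL1 and 2193 in shControl, or 20.3 FPKM in shPPIL1 and 21.3 FPKM in shControl. The ratio of 0.945 (0.889 to 1.00) was slightly below equality, with an interval that reached just past it. AL121722.1, annotated on the same strand with exons that overlap those of FOXA2, has no row in the count table, and its part in the FOXA2 count was not tested. FOXA3, which in mouse liver supports glucose metabolism genes in fasting (chromosome 19, 45863989 to 45873797, plus strand), had 1070 reads in shPPIL1 and 962 in shControl. The ratio was 1.09 and the interval (1.00 to 1.19) began just above 1, so counting error alone nearly covers it.

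The balance among the 3 FOXA genes can be read without any library scaling, since both genes of a pair come from the same libraries. FOXA1 was 1.57 times FOXA2 by FPKM in shPPIL1 and 1.26 times in shControl. The relation of these gene-to-gene ratios was 1.24 (exact conditional 95% interval 1.15 to 1.34). FOXA2 over FOXA3 was 1.51 in shPPIL1 and 1.74 in shControl, a relation of 0.864 (0.776 to 0.961). For FOXA1 over FOXA3 (2.36 in shPPIL1, 2.20 in shControl) the interval of the relation, 0.972 to 1.18, included 1. FOXA1 thus supplied 48.5% of the summed FOXA FPKM in shPPIL1 and 44.5% in shControl, while FOXA2 supplied 30.9% in shPPIL1 and 35.2% in shControl. The 3 genes together had 7786 reads in shPPIL1 and 7019 in shControl, a ratio of 1.09 (1.06 to 1.13).

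The C/EBP genes lay on opposite sides of equality. CEBPA (chromosome 19, 33299934 to 33302564, minus strand) had 21164 reads in shPPIL1 and 19031 in shControl. With that many reads the ratio was narrow, 1.09 (1.07 to 1.12), and stood at percentile 90.3 of its decile. CEBPB (chromosome 20, 50190734 to 50192689, plus strand) had 2652 reads in shPPIL1 and 2928 in shControl, a ratio of 0.891 (0.845 to 0.939) at percentile 14.6 of its decile. It was the lowest ratio of the 8 genes. CEBPA was 6.19 times CEBPB by FPKM in shPPIL1 and 5.04 times in shControl, a relation of 1.23 (1.16 to 1.30). Both genes lack introns in the annotated transcript, and 1-exon genes as a class had a median log2 ratio of -0.01 over 240 kept genes. The mRNA of CEBPA and of CEBPB is translated into long and short protein forms from different start codons, which these counts do not tell apart.

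**Figure D3:**
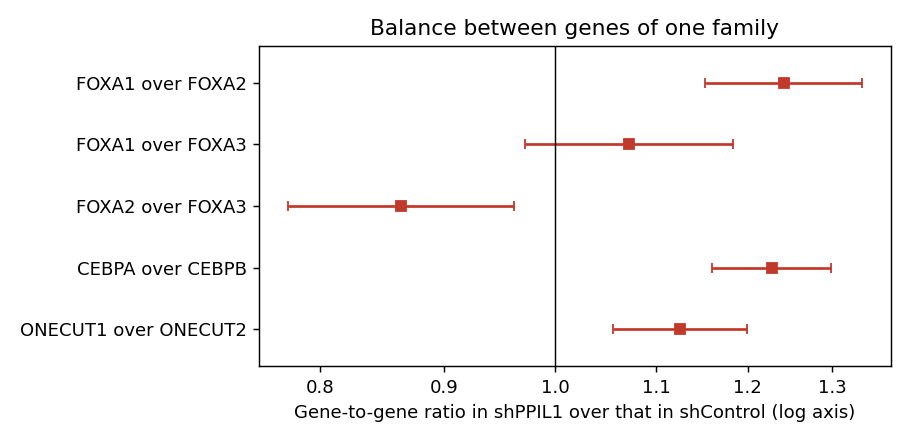
Ratio of one gene to another of its family in shPPIL1 divided by that ratio in shControl (square, log axis), with the exact conditional 95% counting interval, for the 5 pairs compared. FOXA1 over FOXA2 (1.24) and CEBPA over CEBPB (1.23) lie farthest above 1, and FOXA2 over FOXA3 (0.864) lies below 1.

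Of the ONECUT genes, ONECUT1 was the one with a difference beyond counting error. ONECUT1, also known as HNF6 (chromosome 15, 52756989 to 52791078, minus strand), had 2631 reads in shPPIL1 and 2302 in shControl, or 17.2 FPKM in shPPIL1 and 15.1 FPKM in shControl. The shPPIL1 library was the higher, with a ratio of 1.12 (1.06 to 1.19) at percentile 88.5 of its decile. ONECUT2 (chromosome 18, 57435685 to 57491297, plus strand) had 8933 reads in shPPIL1 and 8798 in shControl, a ratio of 0.998 (0.969 to 1.03). The libraries differed by less than the counting error there. ONECUT1 over ONECUT2 by FPKM was 0.694 in shPPIL1 and 0.617 in shControl, a relation of 1.13 (1.06 to 1.2). ONECUT3, the third gene of the family, had 5 reads in shPPIL1 and 2 in shControl.

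PROX1 was slightly lower. It lies on chromosome 1 (213983181 to 214041502, plus strand) and had 14785 reads in shPPIL1 and 15501 in shControl. The ratio was 0.938 (0.917 to 0.959) at percentile 27.1 of its decile, inside the middle 50% of genes in that decile, whose log2 ratios ran from -0.10 to 0.05, beside -0.09 for PROX1. Annotated transcripts on the opposite strand also overlap exons of CEBPA, CEBPB and PROX1, and the count table has no rows for them. Windows of 100 bases along the longest coding transcript of each of the 8 genes were searched for exact matches in the same direction. Of these windows, 0 matched a transcript of a gene by another name. Sequence outside these transcripts was not searched. For ONECUT1, the transcript has 2092 bases, against a length of 3718 bases implied by its count and FPKM. For ONECUT2 these lengths were 16121 and 8763 bases, and for FOXA1 2862 and 3509 bases. FPKM levels compared between genes, such as ONECUT1 over ONECUT2 within a library, depend on the length used. Other lengths were not tried.

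**Figure D4:**
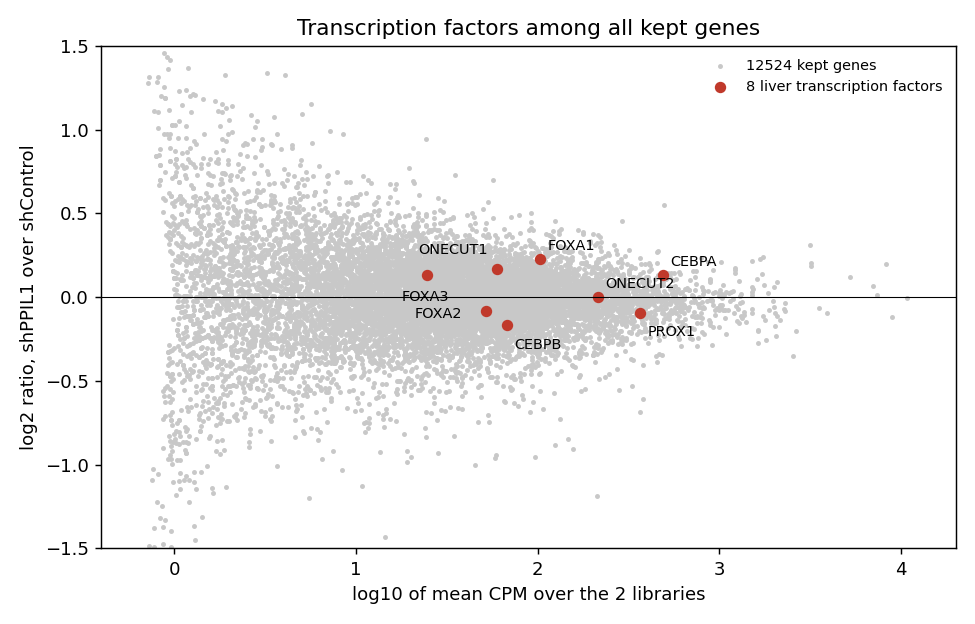
Log2 ratio (shPPIL1 over shControl) against the log10 of mean CPM for the 12524 kept genes (grey, of which 40 fall outside the axes) and the 8 transcription factors (red). All 8 lie within the cloud, between -0.17 and 0.23.

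Related genes from lists of these families and pathways gave the setting. For each list, the counts of intervals stand beside 24.9% above 1 and 26.2% below 1 over all kept genes. Those shares depend on depth. Of 17 other liver transcription factors, all kept, 7 had an interval above 1, 5 below 1 and 5 including 1, with a median log2 ratio of 0.03. GATA4, a zinc finger partner of FOXA factors at liver enhancers, had 77.2 FPKM in shPPIL1 and 60.5 FPKM in shControl, a ratio of 1.26 (1.22 to 1.30). SALL4, an oncofetal zinc finger factor, had a ratio of 1.28 (1.2 to 1.37). ZHX2, a repressor of AFP known from mice, had a ratio of 0.810 (0.772 to 0.849). KLF15, a factor of gluconeogenesis, had a lower ratio of 0.710 (0.558 to 0.901), which rested on 122 reads in shPPIL1 and 169 in shControl.

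Other forkhead and C/EBP genes had intervals on both sides of 1, and the cut homeobox and PROX genes had none below 1. Of 41 other forkhead genes, 19 were kept; 3 had an interval above 1, 4 below 1 and 12 including 1 (median 0.01). FOXO3, a forkhead factor restrained by insulin signalling, had a ratio of 1.23 (1.14 to 1.33) and FOXP1 1.17 (1.07 to 1.28). FOXJ3 had a ratio of 0.805 (0.764 to 0.848) and FOXQ1 0.854 (0.792 to 0.920). Among 8 other C/EBP genes and C/EBP regulators, 6 were kept, with 2 above 1 and 2 below 1 (median -0.07). CEBPD, the family's further acute-phase factor, had 163 FPKM in shPPIL1 and 141 FPKM in shControl, a ratio of 1.14 (1.10 to 1.18). CEBPG, which forms dimers with ATF4, had a ratio of 0.902 (0.871 to 0.935), and ATF4, the integrated stress response factor, 0.874 (0.858 to 0.890). TRIB1, the pseudokinase that hands C/EBP proteins to the ligase COP1, had a ratio of 1.21 (1.16 to 1.25). Of 6 other cut homeobox and PROX genes 3 were kept, 2 with an interval above 1 and 1 including 1 (median 0.16), with SATB1 at 1.34 (1.17 to 1.52) and CUX1 at 1.01 (0.958 to 1.06).

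Partners and known targets were read in the same way. Of 6 PROX1 partners, 5 were kept, 3 with an interval above 1 and 1 below 1 (median 0.09). NR5A2, a nuclear receptor that PROX1 binds and represses, had a ratio of 1.23 (1.18 to 1.29) and HNF4A 1.06 (1.04 to 1.08), while the demethylase gene KDM1A had 0.936 (0.902 to 0.971). Of 14 FOXA target genes, all kept, 5 had an interval above 1 and 2 below 1 (median 0.07). APOA1, the main protein of HDL, had a ratio of 1.08 (1.07 to 1.09) and VTN, vitronectin, 1.07 (1.06 to 1.08). TF, transferrin, had 0.930 (0.919 to 0.941). IGFBP1, also a C/EBP target, had 53 reads in shPPIL1 and 168 in shControl, a ratio of 0.310 (0.223 to 0.425).

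Targets of the C/EBP proteins were listed by function. Of 10 metabolic targets, 7 were kept, with 1 above 1, 1 below 1 and 5 including 1 (median 0.12), and ALB, TTR, CPS1, PCK1, G6PC1, TAT and IGFBP1 stand in the FOXA list as well. The gene above 1 was ALB, at 1.01 (1.00 to 1.01). Gluconeogenic PCK1 had 116 reads in shPPIL1 and 104 in shControl, a ratio of 1.10 with an interval (0.834 to 1.44) that included 1. Of 15 acute-phase targets, 12 were kept, with 7 above 1 and 1 below 1 (median 0.19), beside 24.9% and 26.2% of all kept genes. The median of that list was 0.11 when genes under 5 CPM were left out. HP, for example, had 68 reads in shPPIL1 and 39 in shControl. The fibrinogen chains FGA and FGB had ratios of 1.28 (1.24 to 1.32) and 1.18 (1.16 to 1.2). The lower gene was ORM1, at 0.778 (0.648 to 0.933), which has a near-identical neighbour in ORM2. SAA1, SAA2 and HP of that list have close copies too, and how reads shared by copies were counted is not known here. Of the C/EBP genes given above, CEBPB and CEBPG had ratios below 1, and CEBPA and CEBPD had ratios above 1. The part of these factors in the ratios of the targets was not tested.

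Of 10 ONECUT target genes, 8 were kept, and FOXA2 is one of them. Intervals above 1 were found for 2 of them, HNF4A included, and below 1 for 0, and the median was 0.03. The list of PROX1 targets in lymphatic endothelium had 4 of 7 genes kept, 3 with an interval above 1 (median 0.57). Its highest ratios belonged to ITGA9, an integrin of lymphatic valves, with 59 reads in shPPIL1 and 13 in shControl, a ratio of 4.46 (2.42 to 8.87), and to NRP2, a semaphorin and VEGF-C co-receptor, with 136 reads in shPPIL1 and 71 in shControl, a ratio of 1.88 (1.40 to 2.55). FLT4, PDPN and LYVE1 of that list had at most 2 reads in a library. The ratio of ITGA9 was known when the list was drawn up, so the list is no independent evidence. The median of that list moved to 0.15 when genes under 5 CPM were left out.

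**Figure D5:**
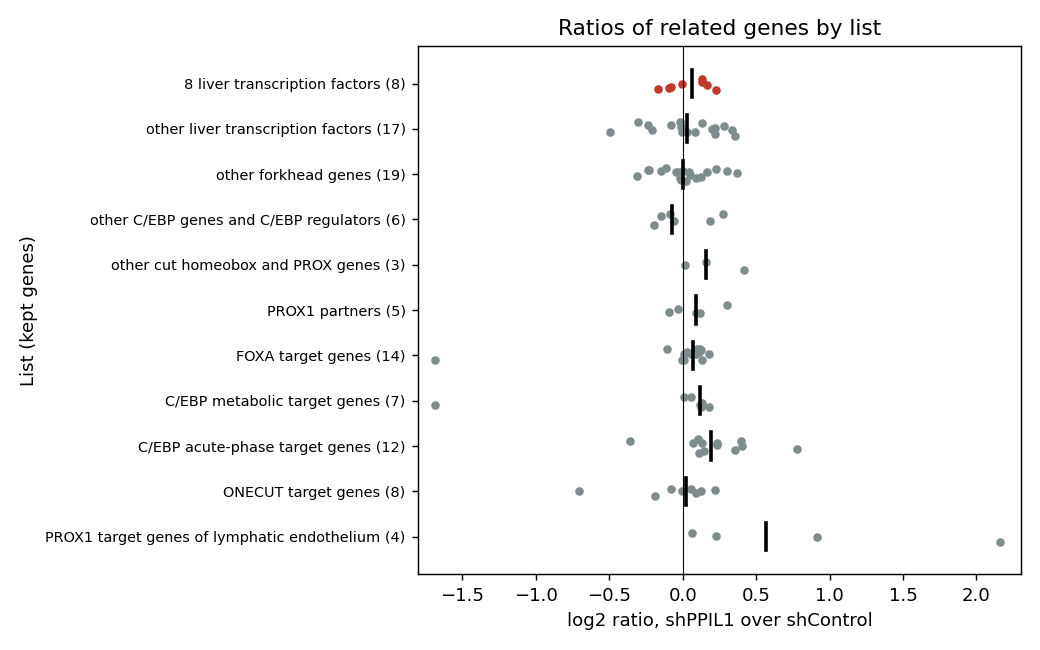
Log2 ratio (shPPIL1 over shControl) of each kept gene by list, with the number of kept genes in brackets and a black bar at the list median. The 8 liver transcription factors (red) lie between -0.17 and 0.23, with a median of 0.06.

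With 2 libraries a pattern is 1 log2 ratio per gene, so likeness says little. Among 82 kept genes of the related lists, those closest to FOXA1 (0.23) were CCNE1, FGG and FGB (0.23, 0.23 and 0.24). Those closest to CEBPB (-0.17) were FOXO1, CEBPG and SLC2A2 (-0.15, -0.15 and -0.19).

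Gene structure and base composition were set beside the ratios. By number of exons, the median log2 ratio of kept genes was -0.01 with 1 exon, 0.00 with 2, 0.01 with 3 to 5, -0.01 with 6 to 10 and 0.00 with more than 10. The 5 FOXA and ONECUT genes, all with 2 exons, spanned -0.08 to 0.23, while the middle 50% of the 563 kept genes with 2 exons ran from -0.17 to 0.17. Across 5 groups of kept genes of equal size by transcript GC content, the median log2 ratio ran from -0.03 in the lowest, which holds PROX1, to 0.01 in the highest, which holds FOXA3, CEBPA and CEBPB. The transcripts of CEBPA and CEBPB had 65.9% and 66.2% GC, with ratios above and below 1. The part of exon number and base composition in the ratios was not tested.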

How the data were processed

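Messenger RNA of Huh7 cells was sequenced, with 1 library per group. The deposited raw counts per gene and the deposited FPKM values per gene were used. Per the submitters' processing notes the build was hg38; aligner, counter, annotation and strand setting are not given in any source used here. In the deposited FPKM values, the length implied by a gene's count and FPKM was whole, within 0.001 bases, for 99.9% of genes in each library. Another 7 sample columns of the count table match no label and were left out.

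Genes with at least 1 CPM in at least 1 library were kept, and none of these was at 0 in a library. Library sizes were scaled with TMM (edgeR 4.0.16, R 4.3.3; factors 1.01 for shPPIL1 and 0.993 for shControl). Ratios have exact 95% Clopper-Pearson counting intervals (scipy 1.17.1), and family pairs a conditional exact interval. The TMM scaling and the ratio intervals were tested on simulated counts that varied by counting error only. The pair intervals and the other steps were not tested in this way. The members and gene lists were chosen with earlier results of these data known. Named genes were all members, PPIL1, and up to 2 higher and 2 lower genes per list by the interval bound nearest to 1, and the marker of each cell type with the most reads (not all are named here); PCK1, CUX1, KRT19, SOX9, SPP1, ONECUT3, TTC6, AL121722.1, genes at or near 0 and genes named for sharing lists or copies were added after their values were seen. Gene positions and exons came from GENCODE release 29. Promoter windows came from RefSeq. Alternatives were DESeq2 1.42.0 size factors, library totals, no filter, 5 CPM, and log2(FPKM + 1) or log2(FPKM + 0.1).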

Additional observations from a re-analysis of the deposited data

How the results depend on the processing

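With 1 library per group, no result has a replicate check. No paired analysis was possible because each group has 1 library. All 48 alternative values of the 8 transcription factors (6 for each gene) lay inside the counting interval of the reported ratio, and the sign changed for ONECUT2 alone, whose log2 ratio ran from -0.00 to 0.02. FOXA1 ran from 0.23 to 0.25, CEBPA from 0.13 to 0.15, CEBPB from -0.17 to -0.14 and PROX1 from -0.09 to -0.07. None of the 8 reached 1.2-fold under any alternative, and the counts of intervals above and below 1 (4 and 2) were the same under every alternative scaling and filter of the counts. All 10 alternative values of the 5 pairs lay inside their intervals. These came from log2(FPKM + 1) and log2(FPKM + 0.1) alone. Apart from the added 1 or 0.1, length and library total cancel in a pair, so little change was possible.

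Counts over all kept genes depend on the filter. Without a filter, 2-fold was reached by 1099 genes upward and 1075 downward, and 1.2-fold by 2878 and 2863. At 5 CPM these were 7 and 11, and 801 and 909. With log2(FPKM + 1) they were 4 and 8, and 718 and 698, and PPIL1 had a log2 ratio of -3.24. With log2(FPKM + 0.1), 32 and 25 reached 2-fold. Of 90 alternative list medians, 83 stayed within the typical counting interval of a list's genes.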
